A study of Mus musculus with 2207 samples.

Results

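The genes described here are 10 neuropeptide genes of the mouse cortex, *Sst*, *Npy*, *Vip*, *Cck*, *Tac1*, *Penk*, *Pdyn*, *Crh*, *Cort* and *Adcyap1*, taken by symbol from the 52636 genes of the expression tables. All 10 were found. They were followed in single nuclei of brain cortex from C57BL/6 mice of 14 weeks of age, sequenced by RamDA-seq, which reads full-length total RNA after random priming. The 2207 nuclei fall into 6 pools of nearly equal size (16.4% to 16.8% of the nuclei each), with 3 mice behind each genotype. The 96-well set holds a wild type pool (WT, *Ehmt1*+/+) and a pool labelled *Ehmt1*Δ/+. The 384-well set holds a WT pool, an *Ehmt1*Δ/+ pool, a pool labelled iTg and a pool with both labels, *Ehmt1*Δ/+; iTg. *Ehmt1*Δ/+ mice carry 1 deleted copy of *Ehmt1*, the gene of the histone H3K9 methyltransferase GLP, and the deletion is not limited to a cell type. The iTg transgene supplies GLP after recombination by *CamKII-CreER*, a driver of forebrain excitatory neurons. As labelled, WT and *Ehmt1*Δ/+ animals of the 384-well set carried the iTg transgene without *CamKII-CreER*, no transgene is given for the 96-well set, and animals labelled iTg or *Ehmt1*Δ/+; iTg had transgene and driver. The legends of the study instead describe every genotype of this set with the driver, and the labels were followed here. Tamoxifen is recorded for all groups from the age of 3 weeks, as 2 doses of 100 mg/kg with an interval of 1 week. The legends for the 96-well mice do not mention it. Which mouse a nucleus came from is not given in the labels, so a pool counts as 1 sample, and SDs across nuclei or intervals of shares cover the spread of nuclei and counting error only.

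Neuropeptides are cut from larger precursor proteins, stored in dense-core vesicles and released to act on G protein-coupled receptors, more slowly and over longer distances than glutamate or GABA. In the cortex, somatostatin and VIP mark separate groups of inhibitory interneurons, neuropeptide Y is made by several interneuron types, and cholecystokinin RNA is also abundant in excitatory pyramidal neurons. A peptide gene can be among the strongest transcripts of a cell that uses it and be silent in the next cell, so its level in a pool depends on how many such cells the pool holds as well as on how much RNA each cell has.

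In mm10, *Sst*, the somatostatin gene, spans 23889573 to 23890958 of chromosome 16 (minus strand). *Cort*, on chromosome 4 from 149125034 to 149126763 (minus strand), encodes the somatostatin relative cortistatin. *Npy* (neuropeptide Y) is on chromosome 6 from 49822710 to 49829507 and *Tac1* (substance P and neurokinin A) on the same chromosome from 7554879 to 7565834, both on the plus strand. *Vip* (vasoactive intestinal peptide) is on chromosome 10 from 5639218 to 5647617 and *Adcyap1* (its relative PACAP) on chromosome 17 from 93199017 to 93206537, both on the plus strand. *Penk* and *Pdyn* encode the opioid precursors proenkephalin and prodynorphin, on chromosome 4 from 4133531 to 4138819 and on chromosome 2 from 129686565 to 129699844, both on the minus strand. *Crh* (corticotropin-releasing hormone) is on chromosome 3 from 19693401 to 19695396 and *Cck* (cholecystokinin) on chromosome 9 from 121489824 to 121495694, both on the minus strand.

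*Sst* is the gene whose cAMP response element, the palindrome TGACGTCA bound by CREB, gave this motif its textbook example, and of the members tested below it differed most between the neuron classes. The proximal promoters of *Sst*, *Vip*, *Cck* and *Npy* are therefore shown, as RefSeq gives them on GRCm38.p6, the build of mm10. Each run holds the 120 bases before the RefSeq start, 5′ to 3′ on the strand of the gene. Capitals mark TGACGTCA or, where it is absent, the shorter motif TGACG or its reverse complement CGTCA, which also lie inside TGACGTCA. *Npy* held none of them.
Sst, chr16:23890845-23890964, minus strand: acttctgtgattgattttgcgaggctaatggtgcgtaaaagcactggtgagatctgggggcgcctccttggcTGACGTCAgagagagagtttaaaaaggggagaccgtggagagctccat
Vip, chr10:5639098-5639217, plus strand: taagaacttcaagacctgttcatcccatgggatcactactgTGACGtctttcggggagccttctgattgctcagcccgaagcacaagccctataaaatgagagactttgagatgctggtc
Cck, chr9:121495695-121495814, minus strand: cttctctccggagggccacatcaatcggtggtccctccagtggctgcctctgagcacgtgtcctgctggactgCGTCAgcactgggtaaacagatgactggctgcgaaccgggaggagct
Npy, chr6:49822590-49822709, plus strand: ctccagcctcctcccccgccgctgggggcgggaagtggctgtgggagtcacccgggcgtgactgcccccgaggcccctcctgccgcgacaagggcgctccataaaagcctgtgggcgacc

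In windows of 300 bases, from 250 before to 50 after the start, TGACGTCA was found in 1 of the 8 members with a RefSeq promoter entry, *Sst*, where it begins 48 bases before the start. It occurs in 588 of 32851 promoter windows of all genes (1.79%). TGACG or CGTCA was found in 6 of the 8 (*Sst*, *Vip*, *Cck*, *Tac1*, *Cort* and *Adcyap1*) and in 20.8% of all windows. In *Vip* it begins 79 and in *Cck* 47 bases before the start, and *Npy* and *Pdyn* lacked it. A match of letters is a description and shows no binding.

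*Ehmt1* RNA, counted over the whole gene and not over the deleted part alone, went against the deletion label in neurons. Its mean was 18.7, 19.5 and 20.7 RPKM in the 3 pools without the label and 31.2, 31.7 and 33.9 RPKM in the 3 pools with it, so every direction below rests on the labels. The recovered read totals of neurons had pool medians from 323273 to 397880, while glial nuclei had medians from 441701 to 510639 reads (96-well set) or from 39940 to 54877 reads (384-well set). The labelled cell types matched their markers: 10 microglia genes summed to 2758 to 4470 RPKM in microglia and 8.42 to 12.9 in neurons, and 10 oligodendrocyte genes to 3327 to 5273 RPKM in oligodendrocytes and 9.55 to 18.7 in neurons. No marker of these lists was at 0 in every pool of its own cell type. The labels were set from clusters of these same values with marker genes, so this match is a description and no check of them. Neurons were placed in a class by the larger of *Slc17a7* (the glutamate transporter VGLUT1) and *Gad1* (a GABA-synthesizing enzyme), which gave 1324 excitatory nuclei and between 43 and 73 inhibitory nuclei a pool. In the other 7 neurons both genes were equal or at 0, and no member exceeded 31.3 RPKM there.

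Members fell into a large set that was high in inhibitory neurons and a pair, *Cck* and *Adcyap1*, that was high in excitatory neurons. In inhibitory nuclei *Sst* had the highest mean of pool means, 308.4 ± 155.2 RPKM (SD, n = 6 pools), followed by *Npy* at 81.2 ± 33.2 and *Vip* at 48.8 ± 25.2. *Penk* stood at 23.9 ± 8.5 RPKM, and none of its pools overlapped those of the next gene, *Pdyn*, at 9.22 ± 5.65. *Tac1* (6.95 ± 2.59), *Cck* (5.22 ± 2.52), *Cort* (4.99 ± 2.3) and *Crh* (4.73 ± 2.53) followed, and each gene in this run overlapped the next over pools. *Adcyap1* was found in 1 inhibitory nucleus, at 3.21 RPKM. In excitatory nuclei *Cck* stood alone at 29.6 ± 7.89 RPKM, with every pool above those of *Adcyap1* (2.05 ± 1.6) and *Sst* (1.93 ± 1.07).

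**Figure D1:**
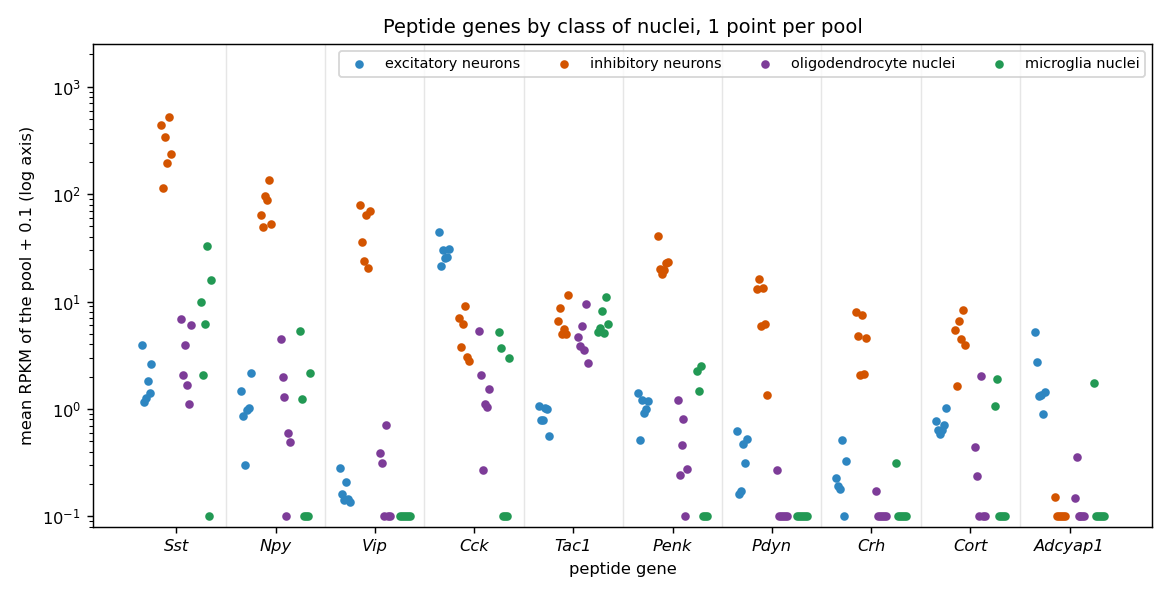
Mean RPKM of each peptide gene plus 0.1, on a log axis, with 1 point per pool for excitatory neurons, inhibitory neurons, oligodendrocyte and microglia nuclei. Inhibitory points lie above excitatory points for every gene except *Cck* and *Adcyap1*, and the glial points of *Tac1* lie above its excitatory points.

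Because the class rule uses only *Slc17a7* and *Gad1*, the difference between classes could be tested on the members, with limma on log2(class mean + 0.1) over 6 pools, the pool as a block and Benjamini-Hochberg adjustment. Of all 22420 genes tested, 22.9% were called higher and 21.1% lower in inhibitory nuclei. Of the 10 members, 8 passed the filter on low values (detection in 10% or more of a class's nuclei in each of the pools). *Sst*, *Cck* and *Tac1* passed it in both classes and are given with their tests. *Npy*, *Penk*, *Pdyn*, *Cort* and *Adcyap1* passed it only through the class in which they were high, so their differences are given as a description, with no test. *Vip* and *Crh* did not pass.

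*Sst* was 7.22 higher in inhibitory nuclei on the log2 scale (standard error 0.30, limma adjusted p = 5.96e-06), and between 6.50 and 8.54 in single pools. *Tac1* was 2.98 higher (0.27, limma adjusted p = 0.000141), with pools from 2.32 to 4.35. *Cck* had a log2 difference of -2.58 (0.24, limma adjusted p = 0.000152), with pools from -3.45 to -1.48. Of the members without a test, *Npy* had a log2 difference of 6.30 (4.61 to 8.33 in single pools), *Penk* of 4.54 (3.87 to 5.27) and *Cort* of 2.67 (1.36 to 3.57). *Pdyn* was the least even of them, at 4.43 with pools from 1.35 to 6.65, and *Adcyap1* had a difference of -4.06 (-5.09 to -3.17). With *Adcyap1* at 0 in 5 of 6 inhibitory pools, the size of its difference depends on the 0.1 added and ran from -6.96 to -0.59 over the alternatives.

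*Vip*, which was not tested, was the member most tightly held by the inhibitory class. Inhibitory nuclei held between 99.1% and 99.8% of the summed *Vip* RPKM of all neurons in every pool. For *Sst* this share was between 95.3% and 99%, and for *Crh* between 78.8% and 100%. *Cort* was the loosest, with 82.6% in the WT pool of the 384-well set and 35.8% in the *Ehmt1*Δ/+ pool of the 96-well set. Excitatory nuclei held 93.2% to 98.1% of *Cck*.

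Within inhibitory neurons the RNA sat in few nuclei. Over all pools, 75 inhibitory nuclei (22.5% of the class) had *Sst* at 100 RPKM or more, 48 (14.4%) *Npy*, 36 (10.8%) *Vip*, 22 (6.61%) *Penk*, 8 *Pdyn*, 5 *Tac1*, 4 *Cck*, 3 *Crh* and 1 *Cort*. In the 6 pools, the neurons at 100 RPKM or more carried 87% to 98.1% of the summed *Sst* RPKM of all neurons. *Vip* was closest to an all-or-none pattern: of 50 inhibitory nuclei above 0, 36 were at 100 RPKM or more. *Tac1* was the opposite, with 62.8% of inhibitory nuclei above 0 and 5 nuclei at 100 RPKM or more. In excitatory nuclei *Cck* was above 0 in 76.4% to 89% of nuclei per pool, and between 5 and 24 nuclei of a pool reached 100 RPKM.

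Of the inhibitory nuclei, 52.9% had no member at 100 RPKM or more, 34.8% had 1, 11.1% had 2 (37 nuclei) and 4 nuclei had 3. The combinations were uneven. Of the 75 nuclei with *Sst* at this level, 21 also had *Npy* (28%), against 27 of those without *Sst* (10.5%). None of the 75 had *Vip*, against 36 of the others (14%), and none had *Penk*, against 22 (8.53%).
At 10 RPKM or more the groups were larger and fell along the same line. *Pdyn* was found with *Sst* in 30 of 41 nuclei (73.2%), and *Cort* with *Sst* in 25 of 50 (50%). *Vip* was found with *Penk* in 22 of 38 nuclei (57.9%) and with *Crh* in 21 of 38 (55.3%). *Vip* and *Sst* met in 4 nuclei, and *Vip* with *Tac1* or *Pdyn* in none. These nuclei share libraries and plates, so the shares are a description of these pools.

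**Figure D2:**
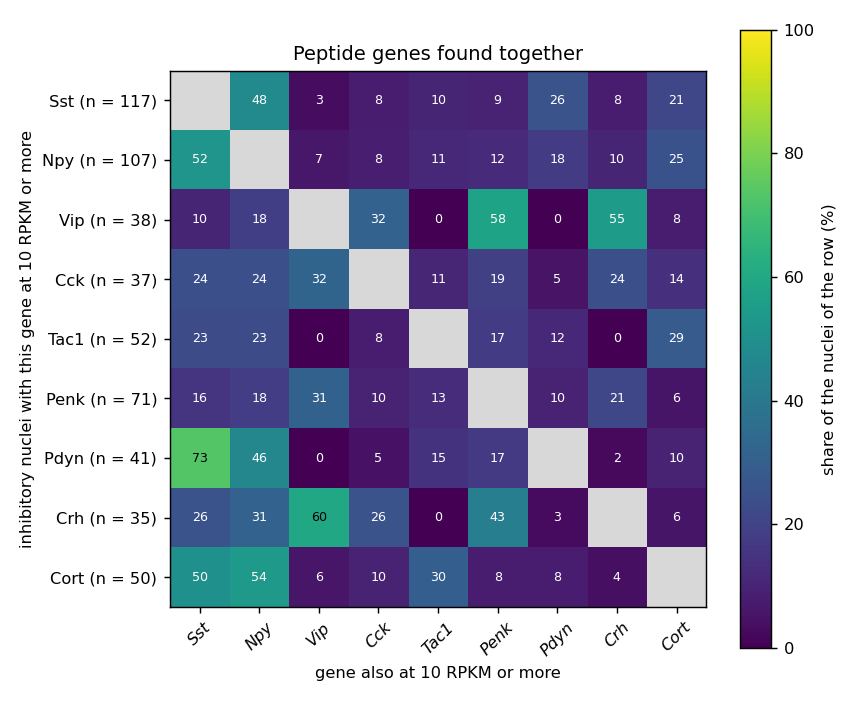
Share of inhibitory nuclei with the gene of the row at 10 RPKM or more that also had the gene of the column at 10 RPKM or more, over all 6 pools, with the number of nuclei per row. *Sst* met *Npy*, *Pdyn* and *Cort* most, and *Vip* met *Penk* and *Crh* most.

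The genes whose values followed a member most closely over the 1664 neurons divide the members in the same way. Over log2(RPKM + 1), *Sst* had its highest Pearson correlation with *Lhx6* (r = 0.61, within pools 0.50 to 0.67) and *Sox6* (r = 0.57), transcription factors of interneurons from the medial ganglionic eminence, then *Ppp3r2*, *Grin3a* and *Frmd4b* (0.53 to 0.51). *Cort* followed *Crhbp*, the CRH-binding protein gene (0.38), and *Lhx6* (0.36), and *Pdyn* followed *Frmd4b* (0.43) and *Sst* itself (0.38). *Vip* followed *Sall1* and *Igf1* (both 0.66), *Nr2e1* (0.61), *Egfr* (0.58) and *Cp* (0.57), *Crh* followed *Vip* (0.51) and *Igf1* (0.41), and *Penk* followed *Dlx6* (0.33), *Nr2e1* (0.32) and *Vip* (0.31). *Npy* was closest to genes shared by many interneurons, among them *Alk* and *Nxph1* (both 0.50), *Dlx1* (0.49) and *Gad2* (0.47). *Cck* followed *Rtn4r* (0.54), *Inka2* (0.53) and *Vipr1* (0.49). *Adcyap1* followed *Krt20* (0.32), *Bdnf* (0.31) and *Hgf* (0.31), and *Tac1* had no closer gene than *Gad1* (0.32). Genes above 0 in under 5% of neurons were left out, which kept 15815 genes, and the nuclei share pools, depth and class, so the weaker of these values carry little.

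The next question was whether peptide RNA differed between the pools labelled *Ehmt1*Δ/+ and WT. Averaged over all neurons, *Sst* was lower with the deletion label in both plate formats, and the means of *Npy*, *Cort* and *Penk* lay the same way, while *Vip* and *Crh* lay in opposite directions in the 2 formats. No member, and no gene, passed limma's test over these 4 pools. The test had 1 residual degree of freedom, and 0% of 23853 genes in neurons, 0% of 23242 in inhibitory and 0% of 23780 in excitatory nuclei were called. At an unadjusted p under 0.05 there were 2428, 1342 and 2129 genes. The differences below are therefore values of pools and not calls.

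*Sst* was the 1 member past the fold rule (at least 2-fold in the same direction in both plate formats), which 33 genes, 0.138% of those tested in neurons, met in the lower direction. Its log2 ratio of *Ehmt1*Δ/+ to WT was -2.52 (96-well set) and -1.36 (384-well set) (estimate -1.94, standard error 0.32, limma unadjusted p = 0.00545, adjusted p = 0.461). In the pools with *CamKII-CreER* the ratio of *Ehmt1*Δ/+; iTg to iTg was -1.20, so that 3 of 3 pairs lay in this direction. How many of all genes lay one way in 3 of 3 pairs was not counted, so this and like runs below are descriptions. *Cort* had ratios of -1.26, -0.72 and -0.48 in the same order (limma adjusted p = 0.461 over both plate formats) and *Npy* of -0.95, -0.66 and -1.28 (limma adjusted p = 0.461). *Penk* had ratios of -1.57, -0.43 and -0.02, given with no test because it passed the filter only through WT, where it was higher. It was above 0 in 28.1% and 17.2% of WT neurons (96-well and 384-well) and in 9.06% and 12.4% of *Ehmt1*Δ/+ neurons. Of the 10 members, 7 passed the filter in neurons, *Penk* among them. Their median log2 difference was -0.80, beside -0.03 over all genes tested, and is a description only. Inhibitory nuclei made up 24.5% (WT) and 16.2% (*Ehmt1*Δ/+) of the neurons in the 96-well set, 25.6% and 17% in the 384-well set, and 19.3% in iTg against 17.9% in *Ehmt1*Δ/+; iTg. A level averaged over neurons cannot tell fewer inhibitory nuclei from less RNA in each.

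Within inhibitory nuclei the *Sst* difference was smaller but lay the same way in each pair of pools. Mean *Sst* was 442.6 RPKM in WT and 114.2 in *Ehmt1*Δ/+ of the 96-well set, 342.5 and 194.2 in the 384-well set, and 521.1 in iTg and 236.1 in *Ehmt1*Δ/+; iTg. All 3 pools with the deletion label were thus below all 3 without it. How many of all genes separated the pools in this way was not counted, so it is a description only. The log2 ratio was -1.95 (96-well set) and -0.82 (384-well set), with an estimate of -1.39 (standard error 0.36, limma adjusted p = 0.845), which does not meet the fold rule that 0.71% of the genes tested in this class met in the lower direction. No member met it.
The share of inhibitory nuclei with *Sst* at 100 RPKM or more did not follow the label. It was 15 of 62 (24.2%, exact 95% interval 14.2% to 36.7%) in WT and 9 of 43 (20.9%, 10% to 36%) in *Ehmt1*Δ/+ of the 96-well set. In the 384-well plates it was 16 of 73 (21.9%) in WT, 14 of 52 (26.9%) in *Ehmt1*Δ/+, 14 of 53 (26.4%) in iTg and 7 of 50 (14%) in *Ehmt1*Δ/+; iTg, and all of these intervals overlapped. The median *Sst* value of those high nuclei was 1179 RPKM in WT and 279.1 in *Ehmt1*Δ/+ of the 96-well set, 1034 and 541.6 in the 384-well set, and 1755 in iTg and 1266 in *Ehmt1*Δ/+; iTg. The geometric means of the same nuclei were 989.8 and 327.7 RPKM, 903.6 and 539.7 RPKM, and 1359 and 1308 RPKM in the same order. Medians and geometric means thus lay lower with the label in each pair, at 7 to 16 nuclei a pool, and the geometric means of the last pair were close.

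**Figure D3:**
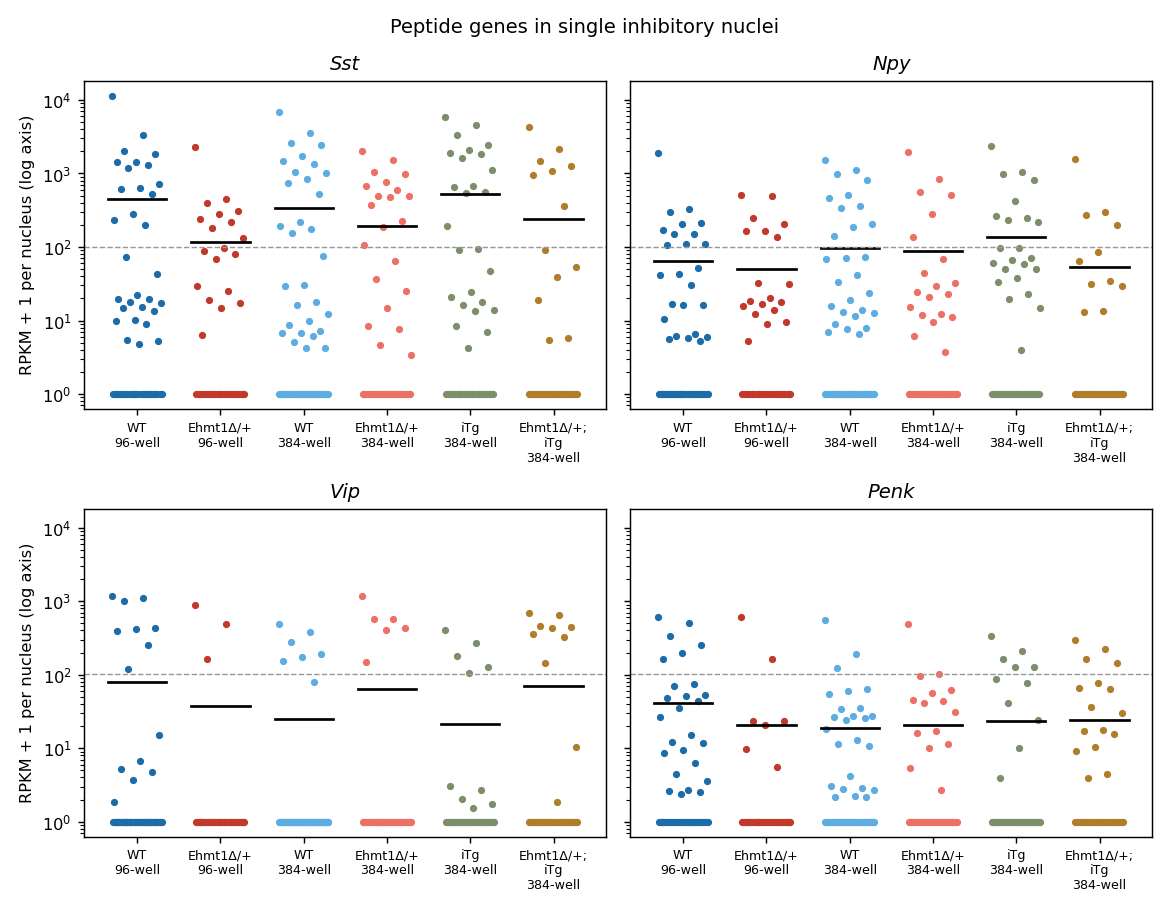
RPKM + 1 of *Sst*, *Npy*, *Vip* and *Penk* in every inhibitory nucleus of the 6 pools, on a log axis, with the pool mean as a black bar and 100 RPKM as a dashed line. The *Sst* bars of the 3 pools with the deletion label (114.2, 194.2 and 236.1 RPKM) lie below those of the other 3, and the points spread over more than the distance between the bars.

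Single nuclei weighed heavily in these means. The 5 highest nuclei of a pool held between 62.6% and 87% of the inhibitory *Sst* sum. The highest, a WT nucleus of the 96-well set with 11333 RPKM of *Sst*, also held 1892 RPKM of *Npy*, and without it the WT mean of neurons was 66.8 RPKM for *Sst* (111.3 with it) and that of inhibitory nuclei 264.04 RPKM for *Sst* (442.6 with it) and 34.1 RPKM for *Npy* (64.1 with it). The *Sst* estimate was then -1.01 in inhibitory nuclei and -1.57 in all neurons, and the *Npy* estimate in inhibitory nuclei changed sign, from -0.26 to 0.20 (limma adjusted p = 0.974). That fit left out a nucleus of 1 pool only. A reading chosen after the values were seen left out the highest nucleus of each pool. Inhibitory *Sst* means were then 264.04 (WT) and 62.86 RPKM (*Ehmt1*Δ/+) in the 96-well set, and 253.34 and 158.77 in the 384-well set. They were 419.74 in iTg and 153.30 in *Ehmt1*Δ/+; iTg. Those of *Npy* were 34.11 and 38.09, 76.68 and 51.49, and 94.26 and 21.03 RPKM in the same order. When log2(RPKM + 1) was averaged over nuclei, which lowers the weight of such nuclei, the *Sst* estimate was -0.17 in inhibitory nuclei and -0.54 in neurons. Over the 4 plate codes of the 96-well pools, mean inhibitory *Sst* ran from 121.3 to 1569 RPKM in WT and from 21.5 to 296.6 RPKM in *Ehmt1*Δ/+. In the 3 codes found in both pools the WT and *Ehmt1*Δ/+ means were 242.2 and 21.5, 1569 and 70.7, and 121.3 and 88.1 RPKM, from 9 to 19 nuclei each, lower with the label in 3 of 3. The WT code at 1569 RPKM includes the nucleus with 11333 RPKM, and a code may stand for more than 1 plate. The 4 markers of oligodendrocyte precursors summed to 81.9 RPKM in inhibitory nuclei of that *Ehmt1*Δ/+ pool and to 15.7 to 22.3 RPKM in the other 5 pools, and without its 2 nuclei at 10 RPKM or more of *Pdgfra* the *Sst* estimate in inhibitory nuclei was -1.35.

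The other peptides of inhibitory nuclei did not share one direction. *Cort* was at 5.33 and 1.54 RPKM (WT and *Ehmt1*Δ/+) in the 96-well set, 6.56 and 4.42 in the 384-well set and 8.22 and 3.84 in iTg and *Ehmt1*Δ/+; iTg, lower with the deletion label in 3 of 3 pairs (limma adjusted p = 0.852 over the 4 pools). *Npy* was at 64.1 and 48.9, 96.6 and 88.5, and 136.6 and 52.5 RPKM in the same order. *Vip* was lower with the label in the 96-well set, at 79.1 and 35.9 RPKM, and higher in the other pairs, at 23.8 and 63.5 and at 20.4 and 69.9 RPKM. These *Vip* means rest on 3 to 8 nuclei of 100 RPKM or more per pool. *Crh* had the same pattern, at 7.83 and 4.64, 1.95 and 7.43, and 2.03 and 4.48 RPKM. *Tac1* was higher with the label in 3 of 3 pairs, at 6.55 and 8.58, 4.92 and 5.4, and 4.88 and 11.4 RPKM (limma adjusted p = 0.916 over the 4 pools). The highest nucleus of the 96-well *Ehmt1*Δ/+ pool held 145.29 RPKM of *Tac1* and its other nuclei averaged 5.32 RPKM. Without the highest nucleus of each pool, a reading chosen after the values were seen, the *Tac1* means were 4.33 and 5.32, 4.32 and 4.52, and 4.04 and 9.25 RPKM. *Pdyn* was at 12.9 and 16, 5.85 and 13.2, and 6.14 and 1.24 RPKM, and *Penk* at 40.8 and 19.8, 17.8 and 19.5, and 22.6 and 23.1 RPKM. Of the 10 members, 8 passed the filter in inhibitory nuclei, with a median log2 difference of -0.21 beside -0.04 over all genes.

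In excitatory nuclei *Cck*, the only member that is abundant there, was at 44.1 RPKM in WT and 21.4 in *Ehmt1*Δ/+ of the 96-well set, 30 and 25.4 RPKM in the 384-well set, and 25.8 in iTg and 30.8 in *Ehmt1*Δ/+; iTg. The first pool stood above the other 5, which lay between 21.4 and 30.8 RPKM. The log2 estimate was -0.64 (standard error 0.24, limma adjusted p = 0.569). By plate code the 96-well means ran from 33.2 to 51.5 RPKM in WT and from 14.5 to 34 RPKM in *Ehmt1*Δ/+. Within the 3 codes that both pools share they were 48.3 and 34, 51.5 and 17, and 42.6 and 14.5 RPKM. *Adcyap1* was at 5.06 and 2.63 RPKM in the 96-well set and between 0.8 and 1.35 RPKM in the 4 pools of the 384-well set, where *Ehmt1*Δ/+ and WT (1.25 and 1.23 RPKM) were close. No member met the fold rule in excitatory nuclei, against 0.16% of the genes tested there in the lower direction. For *Vip*, *Pdyn*, *Crh*, *Cort* and *Npy*, values above 0 in excitatory nuclei were too rare for the filter.

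Low values of *Sst* in excitatory nuclei were most frequent in the pool where those of *Gad1* were. Not every member shared this: *Tac1* was above 0 in 43.5% of excitatory nuclei of that pool and in up to 50.9% elsewhere. *Sst* was above 0 in 31.9% of excitatory nuclei of the 96-well WT pool and in 10.9% to 16.5% of the other 5 pools, and *Gad1* in 64.9% and in 9.09% to 28.2%. At 100 RPKM or more, *Sst* was found in 1 of the 1324 excitatory nuclei. After thinning to 30000 reads the *Sst* shares were 6.16% in that WT pool and 1.77% to 3.6% in the others. Shares above 0 in this class are therefore not used as a difference between genotypes.

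**Figure D4:**
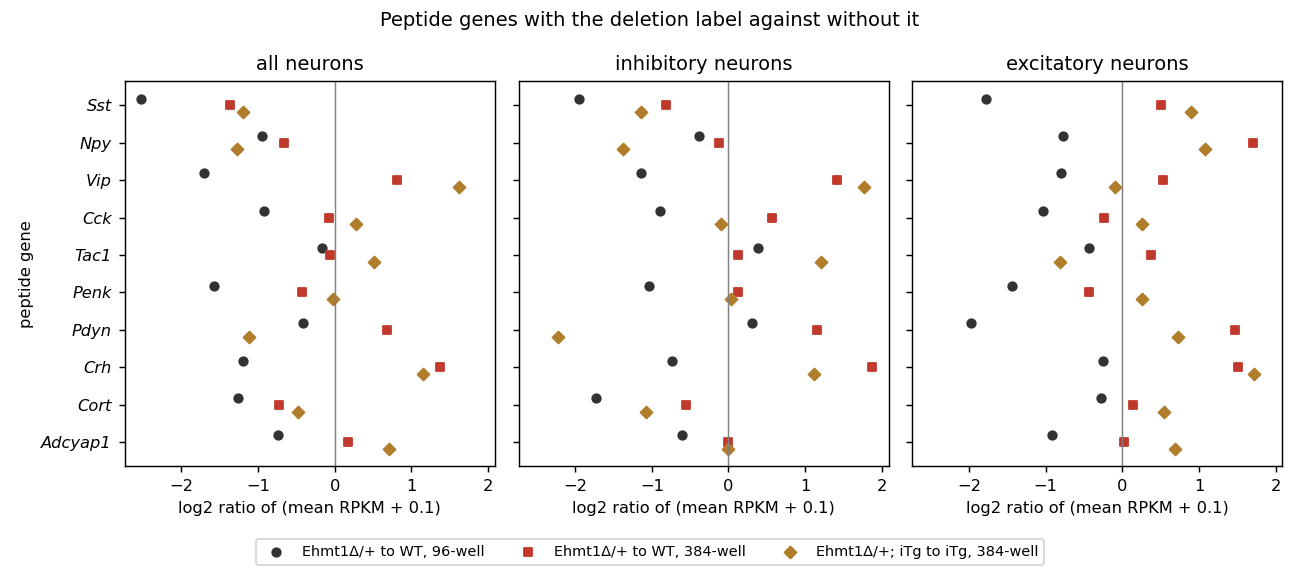
Log2 ratio of the mean RPKM + 0.1 of each peptide gene with the deletion label to without it, in all neurons, inhibitory neurons and excitatory neurons, for the 96-well pools (circles), the 384-well pools (squares) and the 384-well pools with *CamKII-CreER* (diamonds). *Sst*, *Npy* and *Cort* are left of 0 in all 3 pairs of inhibitory neurons, and most other genes have markers on both sides.

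Pools labelled with *CamKII-CreER* were next compared with those labelled without it. As labels and legends differ on who carried the driver, whether this contrast is one of driver or of transgene cannot be told apart. With deletion and plate format in the fit over 6 pools, the *CamKII-CreER* term was called for 0 of the 7 members tested and for 0% of all 22868 genes (643 had an unadjusted p under 0.05), with 2 residual degrees of freedom. *Sst* in neurons was 101.5 RPKM in iTg and 44.2 in *Ehmt1*Δ/+; iTg, beside 88.6 in WT and 34.4 in *Ehmt1*Δ/+ of the same format. Its log2 ratio with the *CamKII-CreER* label was 0.20 against WT and 0.36 against *Ehmt1*Δ/+ (estimate 0.28, standard error 0.36, limma adjusted p = 0.982). The other tested members had estimates from -0.19 for *Npy* to 0.21 for *Tac1*. *Ehmt1* RNA over the whole gene showed no clear rise in this comparison either (estimate 0.09, standard error 0.15, limma adjusted p = 0.982). Its log2 ratios were 0.08 against WT and 0.10 against *Ehmt1*Δ/+, so a supply of GLP cannot be read from these values. This comparison uses the same pools as those of the deletion above. WT nuclei of this set carried another plate code than the other 3 pools, so that plate and genotype cannot be told apart there.

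Peptide RNA was also read in glial nuclei, and *Tac1* was found in a larger share of them than the other 9 genes. In the 96-well plates, *Tac1* was above 0 in 73 of 73 WT oligodendrocytes, 70 of 71 labelled *Ehmt1*Δ/+, 36 of 36 WT microglia and 32 of 32 labelled *Ehmt1*Δ/+. Excitatory neurons of the same plates were at 43.5% and 50%. The mean level was 4.58 and 3.75 RPKM in oligodendrocytes and 5.06 and 5.59 RPKM in microglia, against 0.97 and 0.692 RPKM in excitatory neurons. Oligodendrocytes had a median of 6 and 5 *Tac1* reads and microglia of 8 and 9.5, all whole reads, whereas excitatory neurons had 0 and 0.5. In the shallower glia of the 384-well set *Tac1* was above 0 in 29.9% to 67.6% of oligodendrocytes and 36.8% to 80% of microglia, at means of 2.6 to 9.37 and 4.97 to 11 RPKM. After thinning to 30000 reads its share was 21.2% to 44.9% in oligodendrocytes, 26.4% to 58% in microglia and 4.38% to 8.4% in excitatory neurons, over all 6 pools.

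Relative to neurons of the same pool, *Tac1* stood at 107.7% to 663.7% in glia, above the mean of all neurons in every pool and both glial types. It was not above inhibitory neurons throughout: in the 96-well plates these had a mean of 7.38 RPKM, against 4.17 in oligodendrocytes and 5.31 in microglia, and in the 384-well plates 6.44, 5.52 and 7.48 RPKM. The 9 other members had medians from 0% to 14.5% and 10 pan-neuronal markers had medians from 0.633% to 20.4%. Of the other members only *Cort* exceeded the neurons anywhere, at 161.9% in oligodendrocytes and 260.9% in microglia of 1 pool each. There it was above 0 in only 4.35% of 46 oligodendrocytes and 6.25% of 32 microglia. Single neuronal markers such as *Tubb3* also exceeded the neurons. Genes whose values followed *Tac1* in 96-well glia were sought after its values had been seen. In both glial types they included *Il6*, *Hprt*, *Setd1a*, *Apob*, *Tnf* and *Ins2*, with Pearson r from 0.55 to 0.42 over the 73 and 71 oligodendrocytes and the 68 microglia. *Il6* and *Tnf* encode cytokines, *Apob* a lipoprotein of liver and gut and *Ins2* insulin. In the 96-well plates *Il6* was above 0 in every oligodendrocyte, microglial and excitatory nucleus, at 574.9, 688.3 and 104.1 RPKM on average, and *Tnf* at 130.9, 150.4 and 23 RPKM, again in every oligodendrocyte and microglial nucleus. Inhibitory nuclei of these plates were at 142.4 RPKM of *Il6* and 31.3 of *Tnf*, below glia, whereas for *Tac1* their mean was above. That *Tac1* mean rests on few nuclei, as 5 held 73.3% (WT) and 87% (*Ehmt1*Δ/+) of the inhibitory sum. The median *Tac1* value was 0.844 and 0.711 RPKM in inhibitory nuclei of these 2 pools, below glia. It was 3.73 and 3.47 RPKM in oligodendrocytes and 4.15 and 5.46 RPKM in microglia. Glia thus exceeded excitatory neurons for *Tac1*, *Il6* and *Tnf*, as they did for *Hprt* (233.3, 272.6 and 54.6 RPKM) and *Ins2* (29.4, 34.3 and 5.68 RPKM). Where these reads come from was not tested. Whether *Tac1* RNA is made in glia cannot be read from these values.

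**Figure D5:**
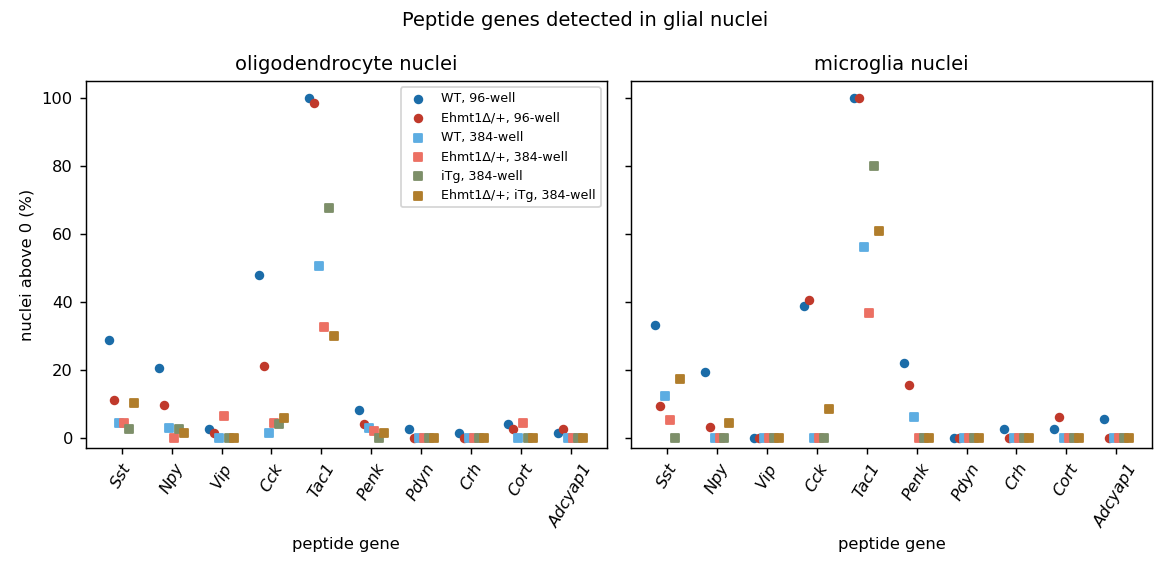
Share of oligodendrocyte and microglia nuclei with a value above 0 for each peptide gene, with circles for the 96-well and squares for the 384-well pools. *Tac1* is near 100% in all 96-well pools, *Cck* is higher in the 96-well than in the 384-well pools of both glial types, and *Sst* and *Npy* are so in oligodendrocytes.

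The other members were found in smaller shares of glial nuclei, though their means were not always lower. In the 96-well WT pool *Sst* was at 6.77 and *Cck* at 5.21 RPKM in oligodendrocytes, above *Tac1*, and in microglia *Sst* was at 9.7, *Npy* at 5.18 and *Cck* at 5.08 RPKM. *Cck* was above 0 in 47.9% of WT oligodendrocytes (exact 95% interval 36.1% to 60%) and 21.1% of *Ehmt1*Δ/+ oligodendrocytes (12.3% to 32.4%) in the 96-well set, and in 1.45% to 5.97% of those of the 384-well set. *Sst* was above 0 in 28.8% (18.8% to 40.6%) and 11.3% (4.99% to 21%) of the same pools, and in 2.82% to 10.4% of oligodendrocytes of the 384-well set. *Slc17a7* and *Gad1*, genes of neurons, moved with them, at 61.6% and 57.5% of WT oligodendrocytes and 35.2% and 33.8% of *Ehmt1*Δ/+ ones, and the 10 pan-neuronal markers summed to 102.3 and 37 RPKM. In microglia of these pools *Cck* was above 0 in 38.9% (WT) and 40.6% (*Ehmt1*Δ/+), while *Slc17a7* was at 69.4% and 43.8%, *Gad1* at 66.7% and 43.8% and the pan-neuronal sum at 100.8 and 29.7 RPKM. Their part in the result was not tested. *Vip*, *Pdyn*, *Crh*, *Cort* and *Adcyap1* were each found in 0 to 3 oligodendrocytes of a pool. In microglia, *Vip* and *Pdyn* were found in 0 of the 36 WT nuclei of the 96-well set, which allows a share of nuclei with a read of up to 8.33%. *Sst* reached 100 RPKM in 3 oligodendrocytes and 2 microglia over all pools. In the test between genotypes, 1 member (*Tac1*) passed the filter in oligodendrocytes and 2 (*Tac1* and *Sst*) in microglia. None was called, as were 0% of 12832 and 0% of 13686 genes (4.72% and 1.93% had an unadjusted p under 0.05), and the estimate for *Tac1* was -0.50 (standard error 0.28, limma adjusted p = 0.87) and -0.28 (0.51, limma adjusted p = 0.958).

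Of 23 receptor genes for these peptides, 13 could be tested between classes, of which 3 were called higher and 6 lower in inhibitory nuclei, beside 22.9% and 21.1% of all genes. Their median log2 difference was -0.11 beside 0.02 over all genes, and 1 of them, *Sstr3*, passed the filter only through excitatory nuclei. *Vipr1*, a receptor of VIP and PACAP, was lowest, with a difference of -3.16 (standard error 0.20, limma adjusted p = 2.5e-05), so that it was at 12.8 to 23.6 RPKM in excitatory and 0.914 to 5.39 RPKM in inhibitory nuclei. *Crhr1*, the main CRH receptor (-2.28), *Cckbr*, the main cholecystokinin receptor of brain (-2.25), and the somatostatin receptor genes *Sstr3* (-2.24) and *Sstr4* (-1.20) were also lower in inhibitory nuclei. *Oprd1*, the delta opioid receptor gene that binds enkephalins, was 1.70 higher (0.11, limma adjusted p = 3.41e-05), *Adcyap1r1*, the PACAP receptor gene, 1.08 higher and *Sstr1* 0.82 higher in inhibitory nuclei.

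All 19 genes of peptide processing and dense-core vesicles could be tested, and 7 were called higher and 10 lower in inhibitory nuclei (median -0.21), beside 22.9% and 21.1% of all genes. *Qpct* passed the filter only through inhibitory nuclei. The convertase genes *Pcsk1* and *Pcsk2*, whose enzymes cut peptide precursors, were both lower in inhibitory nuclei (-1.21 and -1.83, limma adjusted p = 4.37e-05 and 8.19e-06), as were *Cadps2* (-2.40), *Sorl1* (-1.27) and the chromogranin gene *Chgb* (-1.15). *Scg2*, which encodes secretogranin, was 1.65 higher, *Qpct* 1.60 higher, *Pam*, whose enzyme amidates peptides, 0.97 higher, *Vgf* 0.97 higher and *Pcsk1n* 0.86 higher. Of 20 other peptide and secreted factor genes, 8 could be tested, with 5 called higher and 1 lower (median 2.58). Of these 8, *Pnoc*, *Crhbp*, *Nxph1* and *Igf1* passed the filter only through inhibitory nuclei and *Bdnf* only through excitatory nuclei, so neither count nor median says anything of this list beside all genes. *Crhbp* (5.85), *Pnoc*, the nociceptin precursor gene (4.94), *Nxph1* (4.59), *Igf1* (4.19) and *Vgf* were higher in inhibitory nuclei and *Bdnf* lower (-3.31). 

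Between *Ehmt1*Δ/+ and WT none of these lists had a called gene. In neurons the medians were -0.03 for 14 receptors, -0.04 for 19 processing genes and -0.46 for 7 other peptides. *Cartpt*, the gene of CART peptide, met the fold rule in inhibitory nuclei, at 2.13 and 0.637 RPKM in the 96-well set and 1.22 and 0.344 RPKM in the 384-well set. It lay the other way in the pools with *CamKII-CreER*, at 0.294 RPKM in iTg and 7.85 in *Ehmt1*Δ/+; iTg. In microglia, *Cpd* was higher (6.13 and 14.3, 0.241 and 9.34 RPKM) and *Cpe* lower (8.73 and 3.8, 6.04 and 0.835 RPKM) by the fold rule, which 2.12% of the genes tested there met in the higher and 2.37% in the lower direction. These 2 carboxypeptidase genes were among 7 processing genes tested there.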

How the data were processed

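Nuclei were sorted into 96-well or 384-well plates and sequenced by RamDA-seq. The authors trimmed reads with Fastq-mcf, mapped them to mm10 with HISAT2 2.0.4, counted them per gene with featureCounts (Subread 1.5.0), set cell types from UMAP clusters and deposited RPKM values, the unit of every level given here. Read totals were recovered from the most frequent value of RPKM times gene length in each nucleus, taken as a single read. Of the *Penk* values above 0, 78.9% were whole reads (tolerance 0.001), as when reads with several matches are divided, and for the other members 99.9% to 100% were whole. The gene models of *Sst* and *Adcyap1* in the tables differ in version from GENCODE M21, from which coordinates were taken. The methods give counting with default settings, which in featureCounts use no strand and divide no reads. Over genes of unchanged version, 30.8% (96-well) and 26.5% (384-well) of values above 0 were not whole reads, unlike such settings. Whether strand was used is therefore not certain, and reads of a gene and of an antisense partner may not be told apart.

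Pool means were compared as log2(mean RPKM + 0.1), which understates changes of low genes, by limma 3.58.1 in R 4.3.3 on all genes that passed the filter, with Benjamini-Hochberg adjustment at 0.05. Between genotypes, a gene needed detection in 10% of the nuclei of WT, or of *Ehmt1*Δ/+, in both plate formats, and plate format was a term. For the *CamKII-CreER* term, genes had to reach 10% in every pool labelled with or in every pool labelled without *CamKII-CreER*. Shares have exact Clopper-Pearson intervals at 95%, and a share of 0 has the limit of 3 counts. Shares at equal depth are those expected after thinning to 30000 reads, with shallower nuclei left out. Neuron and glia levels were not tested against each other, since the cell types came from clusters of the same values. Levels, shares and figures were computed in Python 3.11.15 (numpy 2.4.6, pandas 2.3.3, SciPy 1.17.1, matplotlib 3.10.9), and the fits were tested on simulated data. The text names all 10 members, the targeted and class genes, list genes called or past the fold rule (at most 5 per list and direction), and up to 5 nearest genes per member, of which 1 is not reported here. The members, lists and tests were chosen with earlier results of these data known.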

Additional observations from a re-analysis of the deposited data

How the results depend on the processing

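The class differences of *Sst*, *Cck* and *Tac1* kept their direction in all 13 alternatives, with limma adjusted p-values of at most 6.18e-05, 0.000962 and 0.000827. No member was called between genotypes or for the *CamKII-CreER* term in any alternative. No paired analysis was possible because replicate numbers follow accession order only. Plate codes shared by both 96-well pools may each stand for more than 1 plate, and values within them stand in the report. The called count moved from 0 in oligodendrocytes, to 6 genes with the mean of log2(RPKM + 1) and to 2 with limma's trend option, none of them a member, and the cause was not tested. Leaving out each pool gave 8525 to 9165 genes called between classes, against 9874. Signs that changed belong to estimates that passed no test. With 6 pools, *Tac1* in neurons was 0.10, *Adcyap1* in neurons 0.04 and *Pdyn* in inhibitory nuclei -0.25. With the mean of log2(RPKM + 1), *Npy* in inhibitory nuclei was 0.00, *Tac1* in excitatory nuclei 0.03 and *Sst* in microglia -0.65. For the *CamKII-CreER* term *Sst* was then -0.01, *Tac1* -0.08 and *Penk* -0.01. With median-of-ratios scaling, *Tac1* in excitatory nuclei was 0.03 and *Cck* for the *CamKII-CreER* term -0.01. With class genes at least 4-fold apart, *Cck* in inhibitory nuclei was 0.33. Without the nucleus with the highest *Sst* value, an alternative chosen after seeing the data, *Npy* in inhibitory nuclei was 0.20. It took a nucleus from 1 pool only. Leaving out the 2 inhibitory *Ehmt1*Δ/+ nuclei with *Pdgfra* at 10 RPKM or more, also chosen after seeing the data, left *Sst* at -1.35. The share of genes past the fold rule in the lower direction depended on the scale. In neurons it was 0.226% with a pseudocount of 0.01, 0.0126% with 1, 0.325% without the filter and 0.0168% with the mean of log2(RPKM + 1), against 0.138%. In the same order it was 1.08%, 0.0947%, 1.88% and 0.043% in inhibitory nuclei (0.71%) and 0.257%, 0.0168%, 0.382% and 0.0294% in excitatory nuclei (0.16%, and 0.0967% with median-of-ratios scaling). In microglia the mean of log2(RPKM + 1) gave 0.183% higher and 0.424% lower and a pseudocount of 1 gave 0.877% and 0.891% (2.12% and 2.37%). Of 80 shares recomputed without 1 plate code, all stayed within their interval. Beyond it lay 36 shares after thinning to 30000 reads (24 stayed), 25 at 10 RPKM or more (35 stayed) and 55 at 100 RPKM or more (5 stayed). Depth limits the glia of the 384-well plates, where a member with few reads would be missed.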
